A study of Mus musculus with 6 samples.

Results

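Maternal Kdm1a mutant embryos at the 2C stage were compared with control oocytes across the 12000 genes, of 47728 gene rows in the table, that were marked as tested. The mutant group held 3 libraries. These embryos came from LSD1 fl/fl, Zp3::Cre+ females, LSD1 being another name of Kdm1a, mated to wild type CB6 males, and were collected at embryonic day 1.5. Cre was driven by the Zp3 promoter, which is active in growing oocytes, so the maternal protein was removed while the paternal Kdm1a allele was left intact (maternal minus, zygotic plus, written M-Z+). Each library was made from pooled litters, by direct lysis and amplification with random hexamer and poly(dT) primers. The control oocytes came from an earlier study and are called wt in the series' design text and Kdm1a fl/fl in the paper. Stage, maternal genotype and study of origin differed together between the groups and cannot be told apart. The mothers of the embryos were superovulated and, in the methods, are called sexually mature with no age.

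Each group was represented by 1 mean per gene and no value per library, so no SD, n per gene or p-value is given, and a difference cannot be set against the spread between embryos. The values are normalized scores, which are compared between groups and not between genes. Genes were called higher or lower where the log2 difference of the means, with 1 added to each, was at least 2 in size, a 4-fold bound. The added 1 understates the change of low genes. The table names its means only a and b, and the order given in the study's legend is the reverse of the one used here. The first mean followed the named control oocyte column of another table almost exactly (Spearman 0.9999 over 10029 genes, with a median ratio of 1.52 and 98% of ratios between 1.44 and 1.62), whereas the second did not (0.762 over 8858 genes).

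KDM1A removes methyl groups from histone tails and works with the CoREST complex, a group of repressors that includes histone deacetylases. A mouse oocyte is loaded with stored messenger RNA and does not transcribe when it is ovulated. After fertilization, stored transcripts are taken out by deadenylation and decay while the embryonic genome is switched on, in the main wave at the 2C stage in the mouse. The question put to these data was what was still higher or lower than in the oocyte when the embryo had reached the 2C stage without the maternal protein.

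Kdm1a (GRCm38, chromosome 4, 136550540 to 136602723) had a mean score of 1409 in control oocytes and 14.9 in mutant 2C embryos. The log2 difference was -6.47. In control 2C embryos of the earlier study, set against the same oocytes, it was -0.22, and in Kdm1a mutant oocytes -6.97. The transcript was thus low in both groups made from mutant females. These 3 comparisons used the same control oocytes, each in its own table with its own scaling, and their values are given side by side only.

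Most tested genes lay within the 4-fold bound of their control oocyte level. Of the 12000 tested genes, 8651 (72.1%) lay within the bound and 5358 (44.7%) within a log2 difference of 1. A total of 1203 genes (10%) were higher and 2146 (17.9%) were lower, and the median log2 difference of all tested genes was -0.26. Against the same oocytes, 26.0% of the 14208 genes tested in control 2C embryos were higher and 23.6% lower, while in mutant oocytes 5.73% of 11651 were higher and 4.63% lower. The mutant 2C embryos therefore had a smaller share of genes past the bound than control 2C embryos and a larger one than mutant oocytes. This order is a description, since the tables were scaled apart and tested different numbers of genes. Across the tested genes the means of the oocytes and the mutant 2C embryos had a Spearman correlation of 0.802, which is across genes and not across samples.

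**Figure D1:**
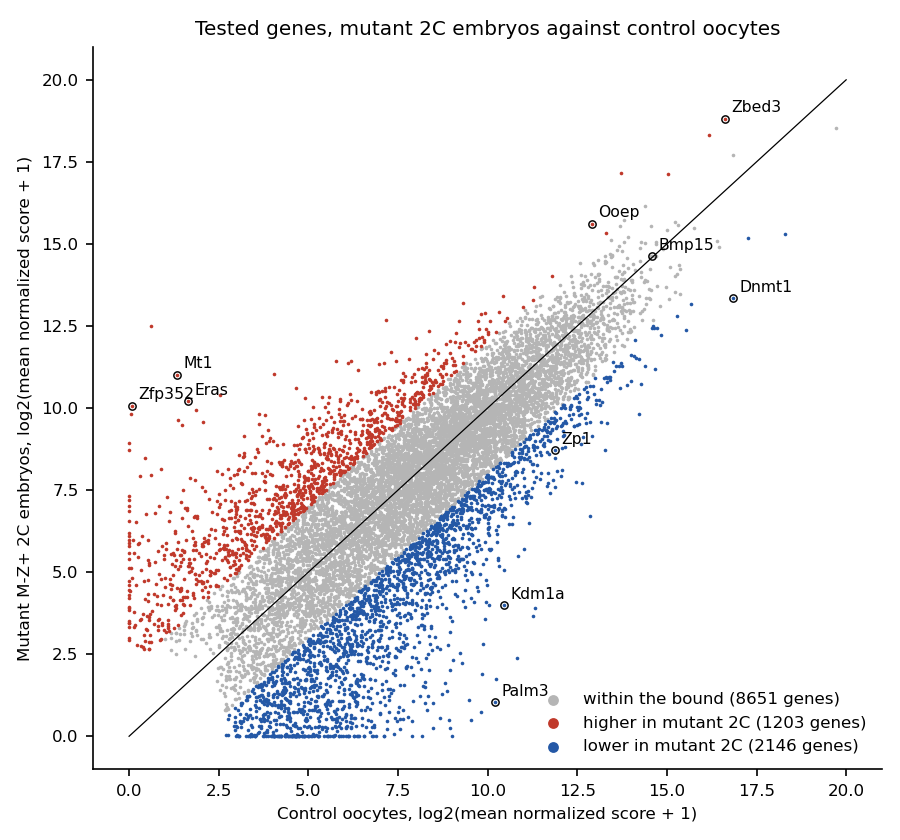
Mean normalized score of each of the 12000 tested genes in control oocytes (x axis) and in mutant M-Z+ 2C embryos (y axis), both as log2 of the mean plus 1. The diagonal line marks equal means, red points are the 1203 higher and blue points the 2146 lower genes, and most genes lie near the diagonal, Bmp15 among them, with Zfp352 and Mt1 far above it and Kdm1a and Palm3 far below.

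Genes called higher started low. Their median control oocyte mean was 23.3 and their median mutant 2C mean 205, whereas the genes called lower went from a median of 151 to one of 13.3. Among the higher genes 28 were listed at 0 in control oocytes, and among the lower genes 102 were listed at 0 in mutant 2C embryos. The share of lower genes was 26.4% where the larger of the means was under 50 and 11.2% where it was at least 5000, and the share of higher genes went from 10.5% to 3.57%. Calls were thus more frequent among weakly expressed genes.

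Among the leading higher genes was one known from the normal 2C stage. Zfp352 (chromosome 4, 90218820 to 90225702), a zinc finger gene known for its burst of expression at the 2C stage, went from 0.06 to 1077, a log2 difference of 9.99 beside 11.56 in control 2C embryos, and was listed at 0 in mutant oocytes. It was thus near 0 in both oocyte groups and high in both embryo groups. The related pseudogene Zfp353-ps went from 0.01 to 425. Close copies may share reads, so these last values are uncertain relative to each other.

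Mt1, a metallothionein that binds zinc and copper, was higher in all 3 comparisons, with log2 differences of 9.68 in mutant 2C embryos, 11.63 in control 2C embryos and 10.44 in mutant oocytes. Its mean in control oocytes was 1.54, and in mutant 2C embryos 2077. Other leading genes were high in the groups from mutant females and not in control 2C embryos. Eras (chromosome X, 7924276 to 7928607), a Ras family member known from embryonic stem cells, went from 2.11 to 1188 (log2 difference 8.58), beside 4.04 in mutant oocytes and -0.01 in control 2C embryos. Btn1a1 (chromosome 13, 23456992 to 23465901), a butyrophilin of milk fat globules, went from 2.66 to 989 (8.08), beside 9.37 in mutant oocytes and -1.24 in control 2C embryos. For both genes the control 2C embryos lay with the control oocytes.

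The 15 leading higher genes were picked by their difference from the control oocyte mean. The other comparisons share that mean, so part of the overlap given here was built in. Of the 15 genes, 11 were also at least 2 in log2 difference in mutant oocytes and 9 in control 2C embryos. Among all genes tested in those groups the shares were 5.73% and 26.0%. Both held for 6 genes, mutant oocytes alone for 5, control 2C embryos alone for 3, and neither for 1. The last was Ptprn, a phosphatase-like protein of secretory granules, whose mean went from 2.60 to 224 (log2 difference 5.96). Among the others were Parvb, a focal adhesion protein, with a log2 difference of 8.27, and the phospholipases Pla2g1b and Pla2g4a, with 7.25 and 6.17. Zdhhc9, a palmitoyltransferase, went from 1.80 to 718.

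The leading lower genes included Palm3, a paralemmin family member, which went from 1179 to 1.05 (log2 difference -9.17), and Plxdc2, a membrane protein, from 906 to 0.65 (-9.10). Plxdc2 was 0.35 in control 2C embryos and listed at 0 in mutant oocytes, so it was low in both groups from mutant females and near the control oocyte level in control 2C embryos. Lef1, a transcription factor of the Wnt pathway, was likewise within the bound only in control 2C embryos, from 719 to 1.13 (-8.40), with -6.98 in mutant oocytes and -1.65 in control 2C embryos. Fam83g, in contrast, was lower in both embryo groups, with -8.50 and -8.73, and -0.67 in mutant oocytes. Emx2 and Cdk5r2, with means of 513 and 288 in control oocytes, were listed at 0 in mutant 2C embryos. Of the 15 leading lower genes, 10 were at most -2 in mutant oocytes and 11 in control 2C embryos, and 2 (Oprd1 and Il17ra) in neither. Among all genes tested in those groups 4.63% and 23.6% were lower. These 15 were also picked by their difference from the shared control oocyte mean, so part of the overlap was built in.

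**Figure D2:**
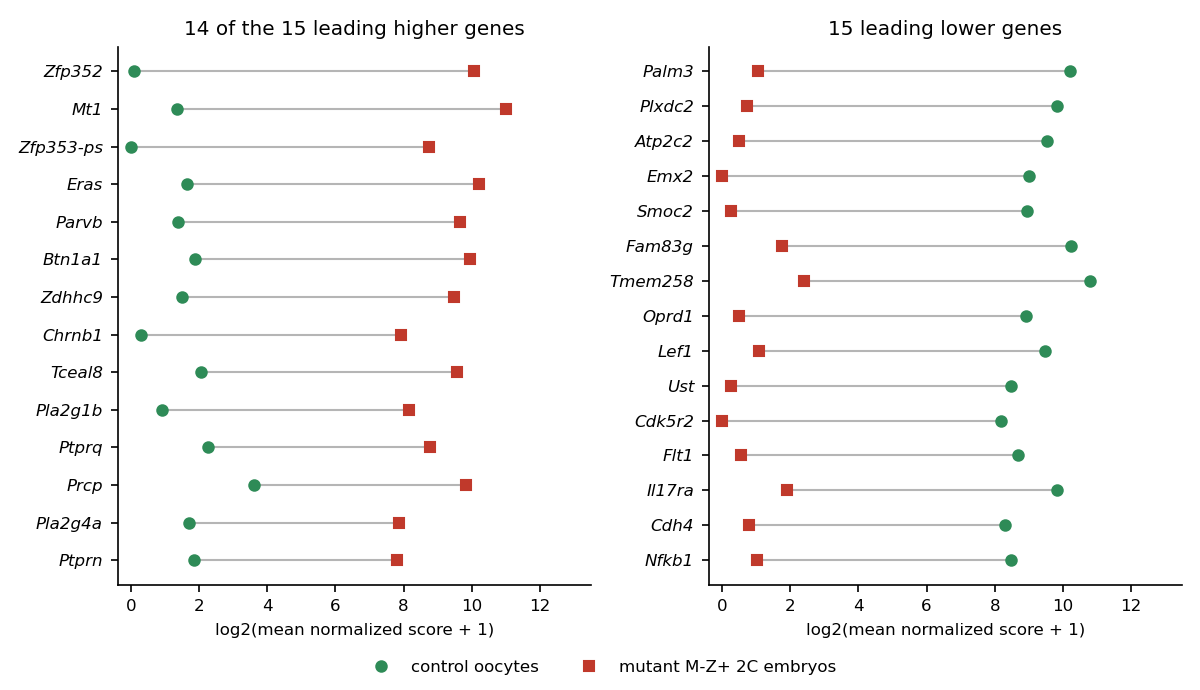
Means of 14 of the 15 leading higher genes (left) and the 15 leading lower genes (right), as log2 of the mean normalized score plus 1, with control oocytes as green circles and mutant M-Z+ 2C embryos as red squares. Each grey line joins the pair of means of a gene, and Zfp352, on the left, runs from a mean of 0.06 to 1077.

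Of the 10 oocyte markers, 8 lay within the bound in mutant 2C embryos, as did 72.1% of all tested genes. In control 2C embryos 8 of the 10 were at most -2, against 23.6% of all genes tested there. Bmp15, a growth factor by which the oocyte acts on its follicle cells, had a mean of 24686 in control oocytes and 25419 in mutant 2C embryos (log2 difference 0.04), and -3.12 in control 2C embryos. Its partner Gdf9 went from 22461 to 14846 (-0.60), beside -5.74 in control 2C embryos. Zar1, a maternal factor that binds stored RNA, was at -1.47 beside -7.17. Zp1, encoding a zona pellucida protein, was the one marker that was lower, from 3759 to 418 (-3.17), and it had -4.01 in control 2C embryos. The other marker past the bound, Ooep, was higher at 2.71. Zp3, of the same coat, had -0.92 in mutant and 0.15 in control 2C embryos.

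The 8 genes of the highest level in both groups were picked for a log2 difference within 0.5. Their likeness between oocytes and mutant 2C embryos was thus set by that choice. In control 2C embryos 3 of the 8, Zfp57, Bpgm and Dcp1a, were at most -2, as were 23.6% of all genes tested there. Zfp57, a zinc finger protein that protects imprints, had means of 38473 and 52426 (log2 difference 0.45), beside -2.83 in control 2C embryos. Bpgm, bisphosphoglycerate mutase, had 30383 and 29698 (-0.03) beside -5.35, and Dcp1a, a subunit of the decapping enzyme, 26541 and 25486 (-0.06) beside -2.93. Mdm4, Trip12, Foxj3 and Strn stayed within the bound in both embryo groups.

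**Figure D3:**
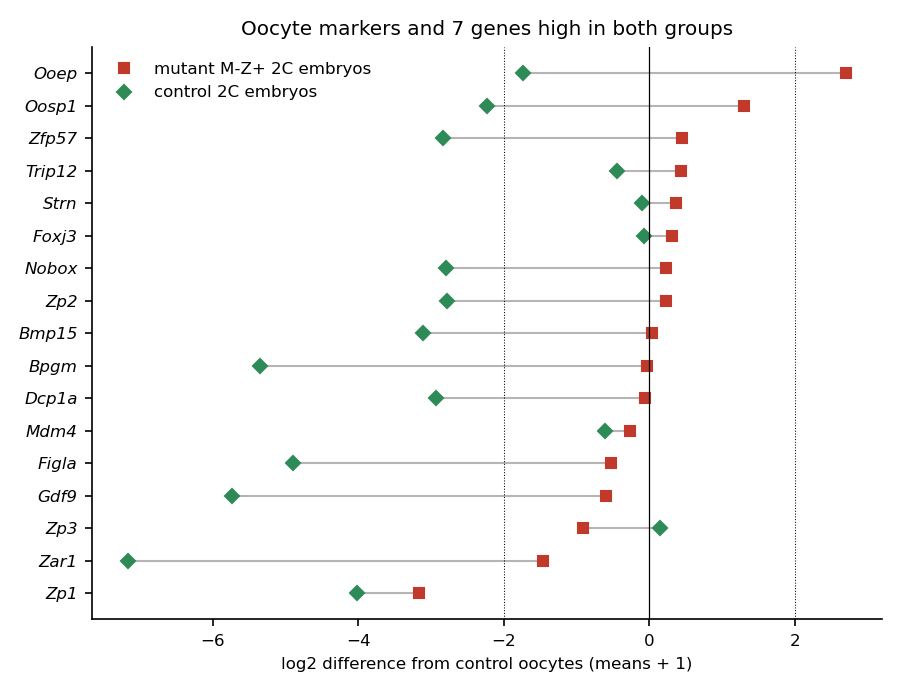
Log2 difference from control oocytes of the 10 oocyte markers and 7 of the 8 genes high in both groups, in mutant M-Z+ 2C embryos (red squares) and in control 2C embryos (green diamonds), each within its own table. Dotted lines mark the bound of 2, and the diamonds lie to the left of the squares for every gene drawn but Zp3.

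The subcortical maternal complex, a protein assembly of the egg cortex needed for cleavage, and the NLRP genes expressed with it were taken as 1 list. Of 16 tested members 2 were higher, a share near the 10% of all tested genes, and 0 were lower. The median was 0.62, against -0.26 for all tested genes, and it includes Nlrp4 and Nlrp9 family genes beside the core of the complex, while the same 16 had a median of -2.91 in control 2C embryos, 9 of them lower. Ooep (chromosome 9, 78376109 to 78378725), a member of the complex, went from 7699 to 50317 (log2 difference 2.71), beside -1.74 in control 2C embryos. Zbed3 (chromosome 13, 95323612 to 95337841), another member, went from 100167 to 462920 (2.21), beside -0.73. Nlrp14 had 1.16 beside -2.62, and Nlrp9b -1.14 beside -5.00. The core members Nlrp5, Tle6, Padi6 and Khdc3 all lay within the bound. Nlrp5 went from 12577 to 12637 (0.01, and -3.55 in control 2C embryos), Tle6 from 2669 to 1150 (-1.21, and -3.94), Padi6 from 7032 to 3299 (-1.09, and -5.60) and Khdc3 from 68.1 to 28.9 (-1.21, and 0.22).

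Other maternal groups were nearer to the background. Among zona pellucida and oocyte transcription factor genes 1 of 14 was higher and 3 lower (median -0.45, and -2.46 in control 2C embryos), and among growth factors and receptors 0 of 12 and 2 of 12 (median -0.98, and -2.67). Tbpl2, the oocyte form of the TATA-binding protein, was the higher one, from 33.9 to 543 (log2 difference 3.96). Factors of mRNA storage and translational control had 1 of 20 higher and 5 lower. Igf2bp2, which binds maternal messages, went from 18110 to 2975 (-2.61), and Msi2, an RNA-binding translational regulator, from 928 to 6.04 (-7.04), beside -3.16 and -4.51 in control 2C embryos. Genes of deadenylation, decapping and RNA decay stayed mostly within the bound, with 1 of 39 higher, 3 lower and a median of -0.25. Btg4, an adaptor that brings the deadenylase to maternal transcripts, had means of 12400 and 28976 (1.22), and Cnot6l, a deadenylase subunit, 15921 and 9363 (-0.77).

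The regulators of meiotic arrest and M phase had 3 higher and 6 lower among 33 members, a distribution like that of all tested genes. Ccnb2, a mitotic cyclin, went from 856 to 6426 (log2 difference 2.91), and Anapc10, a subunit of the anaphase-promoting complex, from 113 to 979 (3.10). Mos, the kinase that holds the egg in metaphase, went from 428 to 41.4 (-3.34), Plk1 from 8378 to 1221 (-2.78) and Bub1b, of the spindle checkpoint, from 10304 to 753 (-3.77). These last 3 genes were also lower in control 2C embryos, at -2.71, -3.23 and -3.89, so not every maternal message persisted.

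Markers of the 2C stage were partly present. Of 41 rows in the list of 2C-stage genes, 18 were tested, of which 5 (27.8%) were higher and 0 lower, with a median of 0.69. For comparison, 1203 of all 12000 tested genes were higher. With a pseudocount of 10 the higher members were 3 of 18, and with a mean of at least 50 they were 5 of 16. Against the same oocytes, 36 of the 41 rows were tested in control 2C embryos and 25 were higher, with a median of 4.03. The share of all genes higher there was 26.0%. The 16 members tested in both had medians of 0.31 in mutant and -0.68 in control 2C embryos, so most of the higher members of control 2C embryos were rows not tested here. Besides Zfp352, the higher members were Usp17lc, a deubiquitinase gene, from 1.06 to 57.9 (log2 difference 4.84, and 4.90 in control 2C embryos), Duxbl1, a double homeobox gene, from 17.1 to 88.8 (2.31, and 2.41), Tcstv1 (2.35, and -2.01 in control 2C embryos) and Zscan4d (2.11). The maternal homeobox genes Obox2 and Obox5, on the same list, had -1.18 and -1.08 beside -4.29 and -4.40 in control 2C embryos. Members of these families have near-identical copies, and how the reads fell among the copies is uncertain.

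The list of p53 and DNA damage genes held 6 higher genes (30.0%) and 0 lower among 20, with a median of 0.35. Among all 12000 tested genes 1203 were higher. In control 2C embryos 18 of the 20 were also tested, of which 8 were higher and 1 lower, with a median of 1.79. These 18 had a median of -0.02 in mutant 2C embryos, so the list as a whole was raised more in control 2C embryos. Cyclin G1 (Ccng1), a target of p53, went from 42.8 to 1052 (log2 difference 4.59). Cdkn1a, the cell cycle inhibitor p21, went from 14.9 to 249 (3.98), Trp53 itself from 309 to 2628 (3.08), and H2afx, the histone variant phosphorylated at DNA breaks, from 56.6 to 896 (3.96). Plk2 and Plk3, kinases of the damage response, were the other higher genes, at 2.74 and 2.42. The same 4 genes named with their means were also positive in control 2C embryos, at 2.69, 3.94, 1.71 and 4.79, and Ccng1 was at 2.89 in mutant oocytes. Chek1, Brca2 and Mdm2 stayed within the bound, at -0.06, 0.02 and -0.19.

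Among the cytosolic ribosomal proteins 9 of 70 (12.9%) were higher and 9 lower, with a median of -0.05. These shares were not far from those of all 12000 tested genes, of which 1203 were higher and 2146 (17.9%) lower. In control 2C embryos 60 of the same 70 were higher and 0 lower, with a median of 3.80. The shares of all genes tested there were 26.0% and 23.6%. Rps15a went from 30.5 to 608 (log2 difference 4.27, and 5.75 in control 2C embryos) and Rplp2 from 24.0 to 299 (3.58, and 5.90). The largest difference was that of Rps27l, a ribosomal protein paralog and p53 target, from 53.6 to 2777 (5.67, and 5.27). Rpl41 went from 3016 to 459 (-2.71) and Rps26 from 113 to 21.0 (-2.37), beside 0.72 and 3.68 in control 2C embryos. Processed pseudogenes of these genes are abundant, so their scores may include shared reads.

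The genes that build ribosomes had a lower median than all tested genes. Of 62 tested members 0 were higher and 20 (32.3%) lower, with a median of -0.89. All 12000 tested genes held 1203 higher and 2146 (17.9%) lower. In control 2C embryos 18 of the same 62 were higher and 2 lower (median 1.21). Of all genes tested there 26.0% were higher and 23.6% lower. The count of higher members in control 2C embryos was thus near the share of all genes. Ubtf, the factor of ribosomal DNA transcription, went from 198 to 17.2 (log2 difference -3.45, and 2.59 in control 2C embryos), Nob1, which trims the small subunit RNA, from 71.9 to 5.29 (-3.53, and 2.26), and Utp14a, of the small subunit processome, from 402 to 27.4 (-3.83, and 1.01). For these 3 genes the embryo groups lay on opposite sides of the oocyte level. Npm1, the abundant nucleolar chaperone, had 89566 and 30623 (-1.55) and stayed within the bound.

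Other lists of translation and protein turnover were read against the 17.9% of all tested genes that were lower. Among aminoacyl-tRNA synthetases, which charge transfer RNAs, 0 of 29 were higher and 10 (34.5%) lower, with a median of -1.54. Tars went from 1228 to 59.1 (log2 difference -4.35), Aars from 2245 to 163 (-3.78) and Mars from 278 to 21.1 (-3.66), beside -0.64, -0.59 and 0.08 in control 2C embryos. Of 43 translation initiation and elongation factors 0 were higher and 10 (23.3%) lower (median -0.73). With the differences centred on the median of all tested genes 4 of the 43 were lower and with the groups scaled to the same sum 7 were. Eif3f, a subunit of the scaffold that loads the small ribosomal subunit, went from 183 to 15.4 (-3.49, and 2.93 in control 2C embryos), and Eif4g2 had 12422 and 16258 (0.39). In the proteasome 2 of 36 were higher and 11 (30.6%) lower (median -0.73). The ATPase subunit gene Psmc3 went from 998 to 16.0 (-5.87, and -2.35), and the catalytic core subunit gene Psmb1 from 268 to 6.30 (-5.21, and 2.19).

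**Figure D4:**
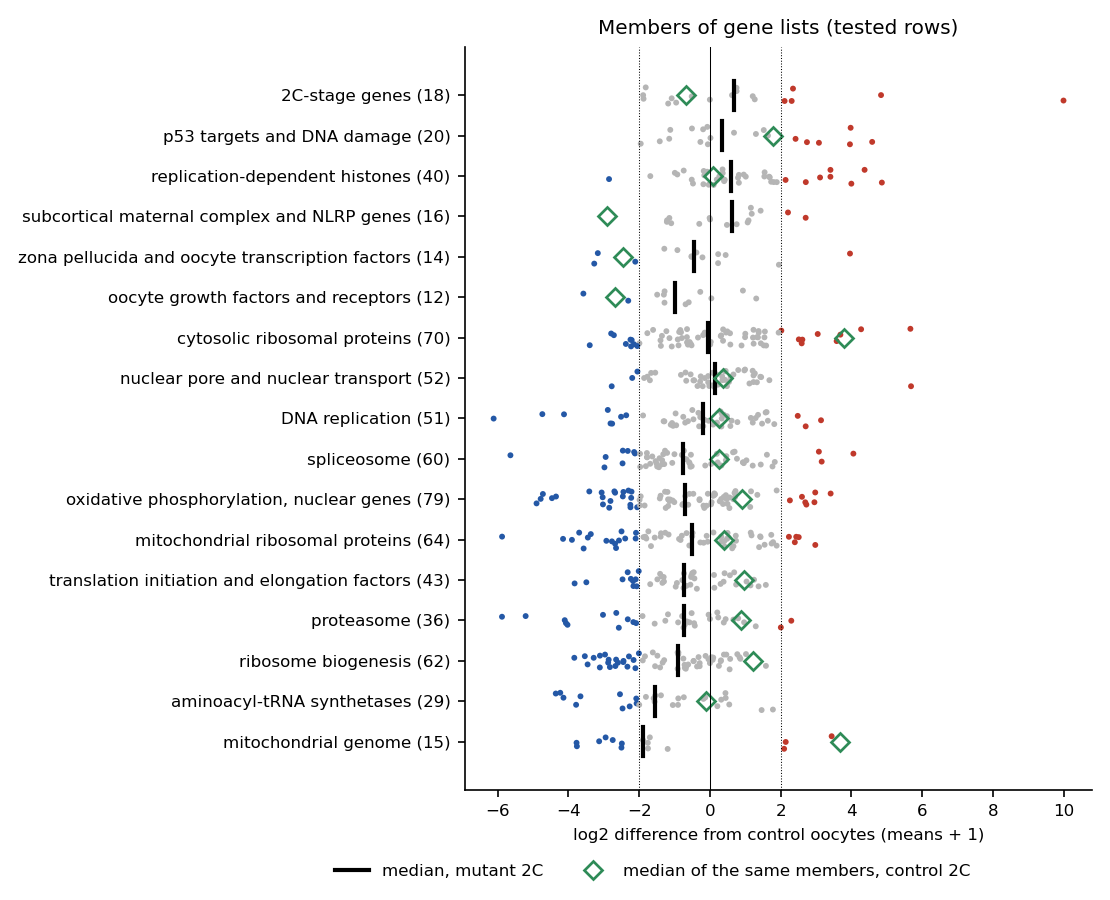
Log2 difference between mutant M-Z+ 2C embryos and control oocytes for the tested members of 17 gene lists (number of tested rows in parentheses), with red and blue points past the bound of 2. Black bars are the medians and green diamonds the medians of the same members, where also tested, in control 2C embryos against the same oocytes; the diamonds lie to the right of the bars for ribosome biogenesis and the cytosolic ribosomal proteins and to the left for the maternal complex genes.

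The respiratory chain genes of the nucleus had 7 of 79 higher and 21 (26.6%) lower, with a median of -0.69, and mitochondrial ribosomal proteins 5 of 64 higher and 16 lower. Ndufa12, of complex I, went from 150 to 4.48 (log2 difference -4.78), and Atp5j2, of the ATP synthase, from 5656 to 214 (-4.72), whereas Atp5b, its catalytic beta subunit, went from 1384 to 10916 (2.98, and 3.38 in control 2C embryos). Transcripts of the mitochondrial genome were split. Of 15 tested rows 3 were higher and 7 lower, with a median of -1.89. The 12S ribosomal RNA, mt-Rnr1, went from 74281 to 328355 (2.14), while mt-Nd3 went from 853 to 61.7 (-3.77) and mt-Nd5 from 2429 to 314 (-2.95). In control 2C embryos all 15 rows were higher (median 3.68) and in mutant oocytes 9 were lower and 0 higher (median -2.49), so the level of these transcripts differed by library group in every comparison. Rows of this genome may overlap in the annotation and may share reads.

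Glycolysis and the tricarboxylic acid cycle were near the background, with 4 of 44 higher and 7 lower and a median of -0.21. Ldha went from 11.5 to 104 (log2 difference 3.08), while Ldhb, the lactate dehydrogenase subunit of oocytes, had 21158 and 14785 (-0.52) beside -4.29 in control 2C embryos. The spliceosome had 3 of 60 higher and 8 lower (median -0.76), RNA polymerase II and general factors 2 of 58 and 7 of 58 (median -0.14), chaperonin and heat shock genes 2 of 32 and 7 of 32 (median -0.87), and DNA replication 3 of 51 and 8 of 51 (median -0.19). Nuclear pore and transport genes had 1 of 52 higher, 3 lower and a median of 0.15. The higher one, Kpna1, an importin alpha, went from 1.22 to 113 (5.69, and 11.22 in control 2C embryos). Hspb1, a small heat shock protein, went from 14.6 to 321 (4.37), beside 2.99 in control 2C embryos and 4.12 in mutant oocytes. Hspa8, the constitutive chaperone, went from 949 to 106 (-3.16).

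Among chromatin regulators, 14 genes of the KDM1A and CoREST list were tested. Of these 1 was higher and 1, Kdm1a itself, lower, and the rest lay within the bound, as 72.1% of all tested genes did. The higher one was Phf21a, which reads unmethylated histone H3 in that complex, from 148 to 825 (log2 difference 2.47, and 2.16 in control 2C embryos). Kdm1b, the related demethylase needed for maternal imprints, had 1795 and 755 (-1.25). Histone methyltransferases and readers had 0 of 36 higher and 3 lower, and Jumonji demethylases 1 of 15 each way, Kdm5b being higher at 3.01 beside 8.28 in control 2C embryos and 3.25 in mutant oocytes.

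Dnmt1 (chromosome 9, 20907209 to 20959888), the maintenance DNA methyltransferase, was the only lower gene of 19 in the DNA methylation list. Its mean went from 118480 to 10439 (log2 difference -3.50), beside -5.73 in control 2C embryos and 0.78 in mutant oocytes. Tet3, the oxidase of the zygote, had 37969 and 16617 (-1.19, and -3.48 in control 2C embryos), and Dppa3, which protects maternal methylation, 13678 and 28405 (1.05). Tet1 was higher, from 122 to 647 (2.40), beside 6.15 in control 2C embryos and 2.22 in mutant oocytes. Of 24 imprinted genes 1 was higher and 3 lower. Gab1, an adaptor protein imprinted in placenta, went from 46.5 to 1283 (4.76), beside 3.65 in control 2C embryos and 5.06 in mutant oocytes. Igf2r, from 680 to 38.4 (-4.11), was at 2.04 in control 2C embryos and -0.64 in mutant oocytes. Pluripotency and early lineage genes had 1 of 16 higher, Eras, and 3 lower, among them Klf4 and Nr5a2. Klf4, from 165 to 1.64 (-5.98), was at 1.60 in control 2C embryos and -6.38 in mutant oocytes. Nr5a2, from 1108 to 210 (-2.40), was at 1.70 and -2.35 in the same groups.

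Replication-dependent histone genes have messages that normally end in a stem loop in place of a poly(A) tail. Of 40 tested members 8 were higher and 1 lower, with a median of 0.61. Among all 12000 tested genes 1203 were higher and 2146 lower. In control 2C embryos 38 of the 40 were also tested, of which 6 were higher and 5 lower, with a median of 0.09. Most members were weakly expressed. In the mutant 2C comparison the larger mean reached 50 for only 16 of the 40, of which 6 were higher and 1 lower. Of the 8 higher genes 6 encode H2B, and the lower one, Hist1h2ba, is the H2B form of oocyte and testis. Hist1h2bm went from 0.73 to 49.4 (log2 difference 4.86), Hist1h2bl from 1.52 to 51.1 (4.37) and Hist1h2bp from 2.57 to 56.1. Hist1h2bj, Hist1h2bn and Hist1h2bq were at 3.41, 3.41 and 3.11. All 6 were low in mutant oocytes, with differences from -0.25 to 0.62, and above 2 in control 2C embryos. Hist1h2ba went from 433 to 59.3 (-2.85). H2B genes are near-identical, so the split between them is uncertain.

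H2B promoters are known for an octamer, ATTTGCAT, that binds the factor OCT1. RefSeq promoters (GRCm38.p6) were found for 9 of the 10 tested H2B genes and are shown for 5 of them, 3 that were higher and 2 that lay within the bound, so that both kinds can be set side by side. Each line gives the 110 bases upstream of the annotated start, in the direction of transcription. Capitals mark the octamer ATTTGCAT or another 8-mer, ATTTGAAT, noticed in these sequences after the values were known. Both were searched on both strands (ATGCAAAT and ATTCAAAT) and do not overlap. The genes are Hist1h2bm at chr13:21721934-21722043 (plus strand, higher), Hist1h2bp at chr13:21787378-21787487 (plus strand, higher), Hist1h2bj at chr13:22043088-22043197 (plus strand, higher), Hist1h2bk at chr13:22035711-22035820 (plus strand, within the bound) and Hist2h2bb at chr3:96269590-96269699 (plus strand, within the bound).
Hist1h2bm: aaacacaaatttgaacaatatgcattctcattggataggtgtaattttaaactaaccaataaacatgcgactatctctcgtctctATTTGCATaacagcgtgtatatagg
Hist1h2bp: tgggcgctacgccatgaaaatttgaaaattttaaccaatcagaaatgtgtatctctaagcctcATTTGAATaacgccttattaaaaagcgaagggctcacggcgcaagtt
Hist1h2bj: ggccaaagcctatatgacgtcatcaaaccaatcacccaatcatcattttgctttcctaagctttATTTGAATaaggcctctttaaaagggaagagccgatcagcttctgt
Hist1h2bk: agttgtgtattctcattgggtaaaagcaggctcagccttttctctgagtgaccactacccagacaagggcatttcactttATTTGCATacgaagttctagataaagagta
Hist2h2bb: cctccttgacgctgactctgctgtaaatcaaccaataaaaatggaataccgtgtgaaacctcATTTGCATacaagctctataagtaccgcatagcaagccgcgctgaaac

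The octamer began 25 bases before the start of Hist1h2bm, 30 bases before that of Hist1h2bk and 48 bases before that of Hist2h2bb. The other 8-mer began 47 bases before the start of Hist1h2bp and 46 before those of Hist1h2bj and Hist1h2bq, all 3 of them higher. Neither was found in the same stretch of Hist1h2bl and Hist1h2bn, which were also higher. Over the 250 bases before the start, the octamer was found in 4 of the 9 promoters and in 490 of the 27025 promoters of all genes (1.81%). The other 8-mer was found there in 3 of the 9 and in 356 of all (1.32%). The octamer was in 1 of the 6 higher H2B promoters. A match in these letters is a description of the window and was not tested for any role.

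Chromosome 13 held the largest share of higher genes, 93 of 528 (17.6%), followed by the X with 60 of 438 (13.7%), and chromosome 5 the smallest (6.91%). This and the next count were looked for after the values had been seen. Zfp genes, most of which encode zinc finger proteins that bind DNA, accounted for 26 of the tested genes on chromosome 13, and 11 of them (42.3%) were higher and 3 lower, with a median of 1.63. On the other chromosomes 32 of 232 (13.8%) were higher and 50 lower, with a median of -0.19. Without Zfp genes the share on chromosome 13 was 16.3%.

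A row of these genes lies between 66669928 and 67827002 of chromosome 13, where 7 of 13 tested Zfp genes were higher and 0 lower. Zfp458 went from 7.22 to 274 (log2 difference 5.06), beside 3.09 in mutant oocytes and 0.58 in control 2C embryos. Zfp640 went from 6.20 to 98.8 (3.79), beside 2.42 and 1.05, and Zfp708 from 201 to 1263 (2.64), beside -0.13 and 0.47. Zfp459, from 8.45 to 57.2 (2.62), was at 3.78 in control 2C embryos. Zfp429, from 0.27 to 32.8 (4.74), was at 2.10 there, with a mean of only 5.01. Zfp595 and Zfp738, the other higher genes of the row, were at 0.48 and -0.37 in control 2C embryos. The genes thus differed among themselves in whether mutant oocytes or control 2C embryos also had them high. Neighbours in this cluster are similar in sequence and may share reads, so their number is uncertain.

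Calls also varied with the composition of the transcript. For 96.3% of tested genes a transcript of the same symbol was found in a GRCm38 annotation. The share of lower genes went from 9.34% in the decile of genes with the lowest GC content (median 39.7%) to 27.0% in the decile with the highest (58.8%), and the share of higher genes from 17.2% to 9.86%. The median log2 difference of these deciles went from 0.40 to -0.64, and that of the same genes from 0.41 to -0.81 in control 2C embryos and from 0.05 to -0.33 in mutant oocytes. With length, the share of higher genes went from 18.0% in the shortest decile (median 721 bases) to 5.02% in the longest. The part of composition, length, amplification or study of origin in the differences given above was not tested.

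**Figure D5:**
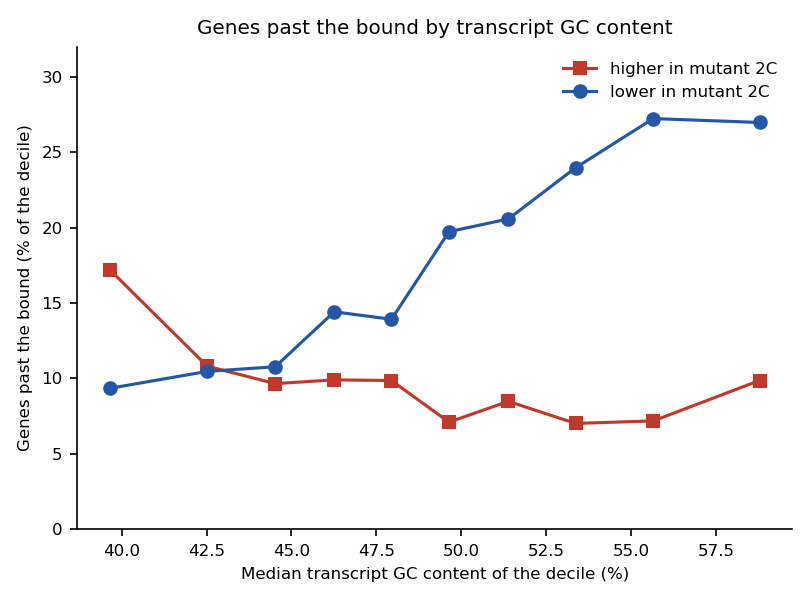
Share of genes higher (red squares) and lower (blue circles) in mutant M-Z+ 2C embryos than in control oocytes, in percent of each decile of the tested genes, against the median GC content of their transcripts in percent. The share of lower genes climbs from 9.34% to 27.0% and that of higher genes goes from 17.2% to 9.86%.

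Few markers of other cells were tested. Of 15 cumulus and granulosa markers 2 were tested, Ptgs2 and Cyp19a1. Ptgs2 was higher, from 2.42 to 49.6 (log2 difference 3.89), with 3.56 in mutant oocytes and -1.68 in control 2C embryos. Cyp19a1 was at 1412 and 1521 (0.11), with 2.15 in mutant oocytes and -7.91 in control 2C embryos. Of 8 oviduct and epithelium markers 2 were tested, Cdh1, lower at 5435 against 693 (-2.97, and -3.83 in control 2C embryos), and Epcam, at 266 and 752 (1.49), both of which oocytes or embryos express themselves. No row of the 7 blood and 10 sperm markers was tested. Amh and Foxl2 were listed at 0 in both groups, and Hba-a2, Hbb-bt and Hbb-bs had means of 4.08, 3.27 and 2.35 in mutant 2C embryos and were listed at 0 in control oocytes. Oaz3, a sperm marker, had 6.90 in mutant 2C embryos against 1.70. Other untested markers had the larger mean in control oocytes. Krt8 had 34.6 there against 5.84, and Cd44 11.35 against 1.01. Prm2, Fshr and Odf1 had 21.3, 12.3 and 9.54 in control oocytes and were listed at 0 in mutant 2C embryos.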

How the data were processed

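RNA was sequenced from 3 libraries each of maternal Kdm1a mutant 2C embryos and mutant oocytes, and control libraries were those of an earlier study. The authors trimmed first reads to 50 bp, discarded those of mean quality under 15, and used BBMap for alignment to mm10 genes and repeats (95% identity, 1 indel, up to 2000 equal alignments), with reads of several loci weighted down. The deposited group means are normalized scores, median normalized in R within each table by the authors. Library depth is unknown, so no counting interval is given. By the authors' statement, a gene had to reach 10 raw counts in some condition to be tested. The submitters' processing notes name Cufflinks and DESeq, with no version number. The deposited tables also hold the authors' fold changes, probabilities, p-values, q-values and significance calls, none of which were used. The number of per-library columns left out was 0.

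Log2 differences of the means plus 1 were computed, and a size of 2 stood in for a test, with no p-value. The calculation was tested on simulated data. Named genes were Kdm1a, the 15 genes with the largest difference per direction (larger mean at least 200, established symbol on 1 row), the 8 genes of highest level in both groups within 0.5, and per list up to 4 members past the bound per direction (mean of at least 50) and up to 3 within it. Genes named outside this rule, among them further list members, the H2B and Zfp genes, were chosen after their values were seen. The members and the 35 lists were chosen with earlier results of these data known. A few genes that the rule selects are not reported here. Groups were taken from the labels, and alternatives were another bound, pseudocount, scaling or filter. Positions are those of a GRCm38 annotation. Python 3.11.15, numpy 2.4.6, pandas 2.3.3, scipy 1.17.1 and matplotlib 3.10.9 were used.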

Additional observations from a re-analysis of the deposited data

Results flagged for a closer look

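Signal was also found in rows that the comparison did not use. Of 477 gene rows that were not marked as tested although a mean was at least 50, 317 were higher in mutant 2C embryos and 73 lower, by the same bound of 2. Myl6b, a myosin light chain gene, had a mean of 412 in mutant 2C embryos and was listed at 0 in control oocytes. Lsm5, a subunit of the RNA-binding Lsm ring, had 391 against 3.49. Dtnbp1, which encodes dysbindin, had 377 against 4.20.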

How the results depend on the processing

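With bounds of 1 and 3 the genes higher in mutant 2C embryos numbered 2661 and 528 and the genes lower in mutant 2C embryos 3981 and 1078, and with untested rows included they numbered 2878 and 3284. Centring the differences on the median of tested genes gave 1499 higher and 1778 lower, which moved the higher share of all calls from 35.9% to 45.7%. The counts moved by under 1.5 times with the columns scaled to the same sum (1340 and 1947), a pseudocount of 10 (862 and 1456), a mean of at least 50 (975 and 1574) and symbols on several rows left out (1183 and 2123). Of 31 list medians, that of pluripotency and early lineages moved to -0.18 and that of the mitochondrial genome from -1.89 to -1.19 with untested rows included, and the latter to -2.49 without symbols on several rows. Centring turned the sign of 9 medians, all within 0.26 of 0 before it, that of the cytosolic ribosomal proteins from -0.05 to 0.22 among them. No named gene turned, and 59 of 265 moved by over 1.5 times with the pseudocount of 10. The cause of these moves was not tested, beyond the higher or lower bound itself. No paired analysis was possible because the table holds 1 mean per group, and for the same reason no library could be left out.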
